A study of Sus scrofa with 24 samples.

Results

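The size response is the difference in hippocampal gene expression between a small for gestational age (SGA) piglet and its appropriate for gestational age (AGA) littermate, and here it was compared between a hydrolyzed fat (HF) formula and a control (CON) formula. All 24 libraries entered the comparison, as 12 litters with 1 SGA and 1 AGA piglet each. In 6 litters both piglets received HF and in the other 6 both received CON. For each gene the mean littermate difference of the HF litters was set against that of the CON litters, which is the size by diet interaction. A positive interaction means that SGA stood higher relative to AGA on HF than on CON, and a negative one means the reverse.

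The groups were AGA CON, SGA CON, AGA HF and SGA HF, with 6 piglets in each. Animals were PIC Camborough x PIC 359 crosses, euthanized at 14 days of age, and size was assigned from birth weight. The CON formula supplied fat as triacylglycerol oils. The HF formula supplied soy free fatty acids, monoacylglycerol palmitate, soy lecithin and cholesterol. Littermates were matched for sex, with 3 male and 3 female litters on each diet, and 3 litters on each diet came from each of 2 cohorts. RNA came from homogenized hippocampal tissue, so that fewer cells of a type and less RNA per cell cannot be told apart in any value given here. Whether the homogenized tissue covered the same part of the hippocampus in each piglet is not given in the sources used here. Different litters received the different diets, so the interaction compares litters and rests on 6 against 6.

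A piglet born small has grown slowly before birth, and its brain enters the weeks of fastest myelination with less reserve. Oligodendrocytes build myelin from cholesterol and long-chain fatty acids, and the hippocampus, the seat of spatial memory, adds neurons and myelin over the same weeks. A formula with digested fat is meant to ease fat uptake in animals with little lipase, and the interaction asks whether the hippocampal difference between small and normal littermates depended on the formula.

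Library totals ranged from 6017336 to 9284355 counts on listed genes, and 3 counts, the floor used here for a single library, correspond to 0.323 to 0.499 CPM, the count scaled to a library total of 1000000. Neuron markers were found in every library, with a summed level of 10 markers between 3461 and 7227 CPM. PROX1 and the other granule and pyramidal markers had a sum between 579 and 1041 CPM. No other brain region was compared, so these sums do not test the label of hippocampus. AGA CON replicate 2 had the lowest neuron sum and AGA HF replicate 4 the next lowest, at 4059 CPM. Sequencing depth moved with the comparison. The log2 ratio of the SGA to the AGA library total was 0.231 ± 0.172 (SD, n = 6) in the HF litters, with the SGA library deeper in 6 of 6, and -0.00696 ± 0.124 (SD, n = 6) in the CON litters, with the SGA library deeper in 2 of 6 (2-sided exact permutation test over 924 splits, p = 0.0173). After all libraries were thinned to the lowest total, 48 genes passed the test in place of 45, and 34 were shared. HSD17B4, PCDH17, CLIC2 and MED4, described below, were among those that no longer passed.

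Of 16326 genes tested, 45 differed in size response between the diets (0.276%), by edgeR's quasi-likelihood test with litter as a block and a Benjamini-Hochberg FDR (adjusted p) under 0.4 over 4 contrasts. These genes are called DEGs below. The interaction was positive for 27 DEGs (0.165% of genes tested) and negative for 18 (0.11%). The size response itself gave 205 DEGs on CON (1.26%), 145 on HF (0.888%) and 420 as the mean over both diets (2.57%). At an unadjusted p under 0.05 the interaction held 609 genes (3.73%), where 816 would be found by chance. With the FDR computed over the interaction alone 4 genes passed, and 1 gene, GH1, had an FDR p under 0.05 over the 4 contrasts. The median standard error of an interaction was 0.207 on the log2 scale, against 0.147 for the size response on either diet. An FDR p of 0.4 accepts up to 40% false calls over the contrasts together, and it sets no bound for the interaction DEGs alone. The last DEG inside the threshold, MED4, had an unadjusted p of 0.004875 and an adjusted p of 0.9998 over the interaction alone. At that unadjusted p, 45 of 16326 genes are no more than chance gives.

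The interaction DEGs mostly changed sign between diets. Of the 27 positive ones, 24 were lower in SGA than in AGA on CON and higher in SGA on HF, 2 were higher in SGA on both diets and 1 was lower on both. All 18 negative ones were higher in SGA on CON and lower in SGA on HF. The DEGs were chosen for a difference between the diets, so opposite signs follow largely from that choice. Of all genes tested, 58.3% had the same sign on both diets. Of the 45, 18 were also DEGs for size on CON, 9 for size on HF, and 18 for neither. Of all genes tested, 1.26% were DEGs for size on CON and 0.888% for size on HF. The interaction is the difference of these same size responses, so the overlap was largely built in. The smallest interaction among the 45 was 0.32 and the median 0.94 in absolute log2 units. For 14 of the 45 the 6 HF litter differences and the 6 CON litter differences did not overlap. The 45 were chosen on these same differences, so this count, and the non-overlap of single DEGs given below, are descriptions. Of all genes tested 26 did not overlap (0.159%), 14 with every HF litter above every CON litter (0.0858%) and 12 with every HF litter below (0.0735%).

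The size responses on the 2 diets were also compared over all genes tested, interaction DEGs included, as a description. The litters of the 2 diets are different animals, so their size responses share no library. Across the 16326 genes, which are not independent replicates, Pearson's r between them was 0.0903 and Spearman's rho 0.196, and among the 10953 genes with a mean of at least 5 CPM they were 0.137 and 0.313. Of the 205 DEGs for size on CON, 178 had the same sign on HF (86.8%), against 58.3% of all genes tested. Their median size response was 0.42 on CON and 0.16 on HF, counted in the CON direction. Of the 145 DEGs for size on HF, 119 had the same sign on CON (82.1%), with a median of 0.37 on HF and 0.15 on CON. Each list was chosen on its own diet, so the value on that diet is a description. The overlap of both lists was 24 genes, 11.7% of the CON list and 16.6% of the HF list.

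**Figure D1:**
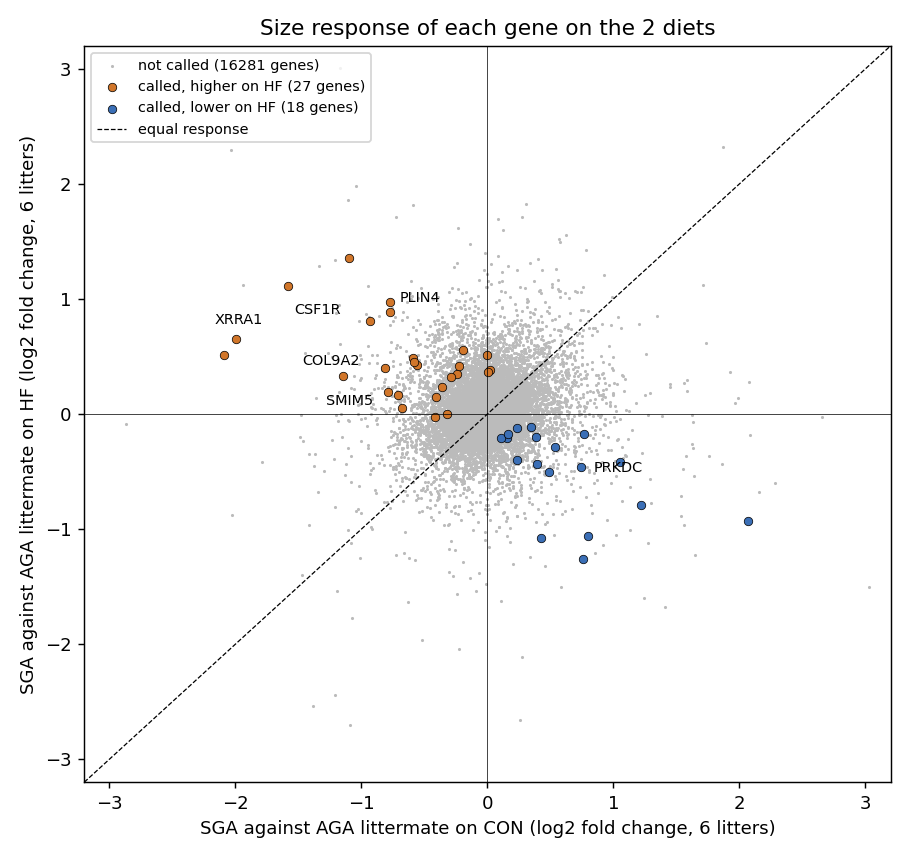
Size response of each tested gene, as the log2 fold change of SGA against AGA littermates on CON (horizontal axis) and on HF (vertical axis), with 6 litters behind each. Orange points are the 27 DEGs with a positive interaction and blue points the 18 with a negative one, and nearly all lie in the upper left and lower right quadrants. GH1 is among 7 genes outside the plotted range of 3.2 log2 units.

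PLIN4 and HSD17B4 had interactions of opposite sign. PLIN4 (chr2:74811668-74824921, Sscrofa10.2) encodes a perilipin that coats lipid droplets. Its levels were 1.55 to 3.01 CPM in AGA CON (median 2.12) and 0.658 to 1.62 in SGA CON (median 1.25). On HF the order turned, with 0.524 to 1.42 CPM in AGA (median 0.935) and 1.23 to 2.45 in SGA (median 1.70). PLIN4 was lower in the SGA littermate in all 6 CON litters and higher in all 6 HF litters, and the litter differences did not overlap. The interaction was 1.65 ± 0.42 (SE, log2; adjusted p = 0.238), and the size response was not a DEG on either diet alone. The lowest PLIN4 values, 0.524 CPM in AGA HF and 0.658 CPM in SGA CON, lay near the floor of 3 counts. DESeq2 did not call PLIN4 (adjusted p = 0.4005). HSD17B4 (chr2:128752284-128841343), the bifunctional enzyme of peroxisomal beta-oxidation, went the other way. On CON it measured 67.0 to 86.4 CPM in AGA (median 74.1) and 80.6 to 89.8 in SGA (median 84.5). On HF the values were 79.9 to 109 CPM in AGA (median 90.9) and 73.0 to 87.8 in SGA (median 79.5). The SGA littermate was higher in 5 of 6 CON litters and lower in 6 of 6 HF litters, and the interaction was -0.37 ± 0.10 (SE; adjusted p = 0.302).

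The strongest negative interaction of a named gene was that of PRKDC (chr4:87185946-87343690), the catalytic subunit of the DNA-dependent protein kinase that joins broken DNA ends. Levels were 8.29 to 20.3 CPM in AGA CON (median 11.2) and 9.46 to 25 in SGA CON (median 21.7). In the HF litters they were 10.3 to 22.3 CPM in AGA (median 19.5) and 8.53 to 18.3 in SGA (median 12.7). All 6 CON litters had more PRKDC in the SGA piglet and all 6 HF litters had less, with differences of 0.16 to 1.16 against -0.90 to -0.07 on the log2 scale. The interaction was -1.20 ± 0.21 (SE; adjusted p = 0.0593). PRKDC was a DEG for size on CON (0.75 ± 0.15, adjusted p = 0.0997) and not on HF (-0.46 ± 0.15, adjusted p = 0.413). Each single litter could be left out and PRKDC stayed a DEG, with values from -1.33 to -1.11. XRRA1 (chr9:10269195-10372279), named for a link to X-ray resistance, was a DEG with a positive interaction (adjusted p = 0.196), and lay near the floor. XRRA1 had 3 to 10 counts a library in AGA CON and 0 to 3 in SGA CON, at or under the floor in all 6, against 2 to 5 in AGA HF and 4 to 10 in SGA HF. The size of its interaction depends on the prior count and is not given. Its litter differences were all negative on CON and all positive on HF.

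DAAM2, SFRP2 and HEYL were DEGs for size on CON and not on HF. DAAM2 (chr7:40289171-40416201), a formin that acts in Wnt signalling and is made by glia, measured 1360 to 1900 CPM in AGA CON (median 1810) and 1140 to 1580 in SGA CON (median 1380). In the HF litters it was 1240 to 1920 CPM in AGA (median 1670) and 1130 to 1880 in SGA (median 1640). DAAM2 fell in SGA on CON by 0.32 ± 0.06 (SE, log2; adjusted p = 0.101) and the value on HF was 0.0033 ± 0.064 (adjusted p = 0.995). Its litter differences did not overlap, at -0.45 to -0.20 on CON and -0.13 to 0.19 on HF, and the interaction was 0.33 ± 0.09 (SE; adjusted p = 0.307). SFRP2 (chr8:79743347-79751962), a secreted modulator of Wnt ligands, had medians of 308 CPM in AGA CON and 237 in SGA CON, and 266 and 254 in AGA HF and SGA HF. SFRP2 fell in SGA on CON by 0.42 ± 0.08 (adjusted p = 0.0879), its value on HF was -0.03 ± 0.08, and the interaction was 0.39 ± 0.11 (adjusted p = 0.319). HEYL (chr6:88532056-88547809), a transcriptional repressor induced by Notch, ran opposite, with CON medians of 20.8 CPM in AGA and 24.9 in SGA, and HF medians of 20.9 and 19.9 CPM. HEYL rose in SGA on CON in 6 of 6 litters (0.35 ± 0.09, adjusted p = 0.266). Its interaction was -0.46 ± 0.13 (adjusted p = 0.319), without overlap of the litter differences.

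COL9A2 and PCDH17 had positive interactions. COL9A2 (chr6:89418532-89434729), a chain of type IX collagen, measured 20.0 to 50.9 CPM in AGA CON (median 38.3) and 12.4 to 27.4 in SGA CON (median 20.3). In the HF litters it was 14.0 to 25.2 CPM in AGA (median 20.8) and 22.8 to 32.1 in SGA (median 24.7). AGA CON stood above the other groups by its median, although the group ranges overlapped. The interaction was 1.21 ± 0.28 (SE; adjusted p = 0.196), and COL9A2 fell in SGA on CON by 0.81 ± 0.20 (adjusted p = 0.228), while its value on HF was 0.40 ± 0.20 (adjusted p = 0.645). PCDH17 (chr11:31998284-32036732), a protocadherin of synaptic contacts, had CON medians of 8.29 CPM in AGA and 5.47 in SGA, and HF medians of 4.53 and 6.89 CPM. It was lower in SGA in 6 of 6 CON litters and higher in 4 of 6 HF litters, and the interaction was 1.04 ± 0.30 (adjusted p = 0.33).

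**Figure D2:**
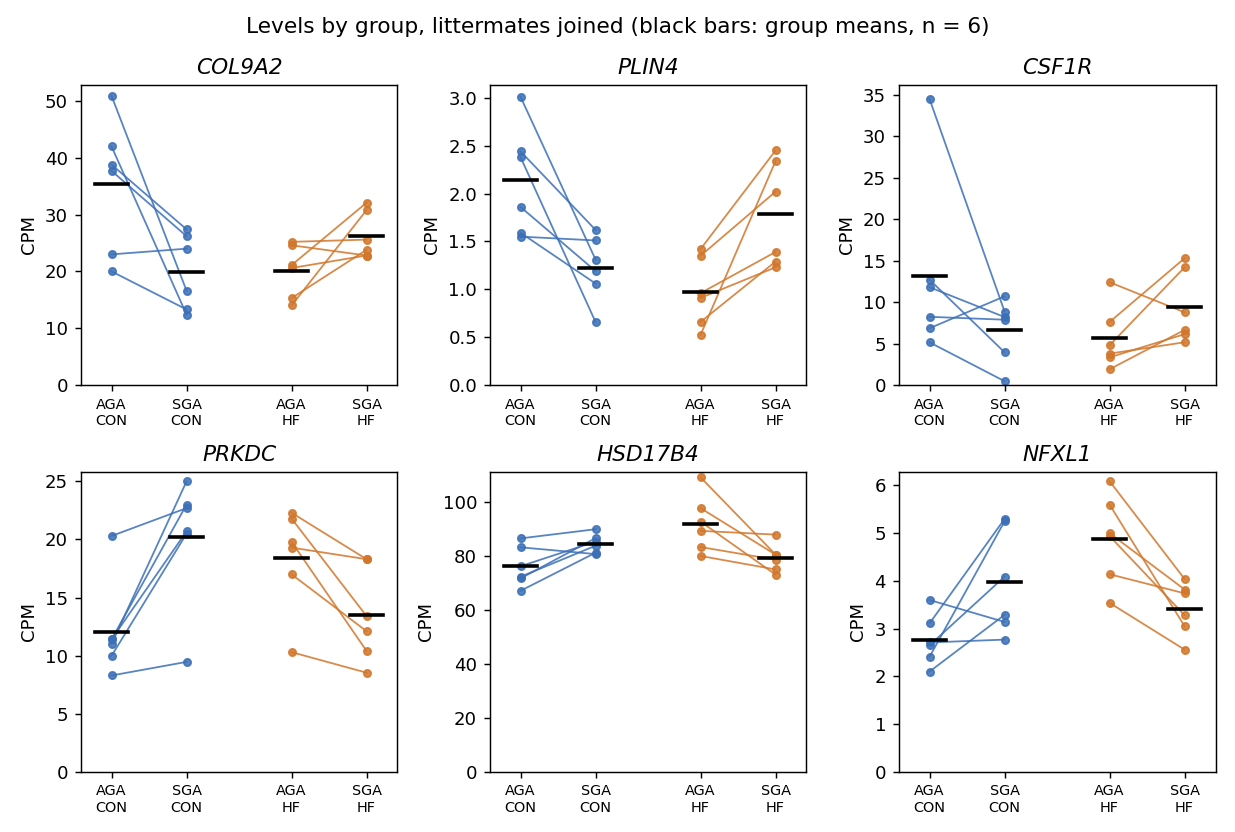
CPM of COL9A2, PLIN4, CSF1R, PRKDC, HSD17B4 and NFXL1 in every piglet, with littermates joined by a line, CON litters in blue, HF litters in orange and black bars for group means (n = 6). In the upper row most lines run down on CON and up on HF, and in the lower row the reverse. CSF1R in AGA CON replicate 2 stands apart at 34.5 CPM.

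CSF1R (chr2:157855536-157882913), the receptor that microglia need for survival, had a positive interaction of 1.74 ± 0.51 (SE; adjusted p = 0.342) and scattered widely within groups. On CON it ranged from 5.15 to 34.5 CPM in AGA (median 10.0) and from 0.462 to 10.7 in SGA (median 8.04). On HF it ranged from 1.90 to 12.4 CPM in AGA (median 4.30) and from 5.16 to 15.3 in SGA (median 7.71). The highest value was in AGA CON replicate 2 and the lowest in SGA CON replicate 3. The microglia and macrophage list did not share this interaction. Its 14 tested members had a median interaction of 0.01, with 8 positive, and CSF1R was the only DEG. Complement C1QA gave -0.10 and the purinergic receptor P2RY12 0.18. SGA CON replicate 3, the library with the least CSF1R, had 69.5 CPM of C1QA, within the 21.1 to 80.5 CPM of the other libraries. AGA CON replicate 2, the library with the most CSF1R, also had the highest summed level of the list, 387 CPM. In the litter of CON replicate 2 the median difference of the list was -1.04, beside -1.93 for CSF1R. In that of CON replicate 3 these were 1.00 and -2.90. HPS1, on an unplaced sequence, encodes a subunit of the complex that forms lysosome-related organelles. HPS1 was lower in SGA in 6 of 6 CON litters and higher in 5 of 6 HF litters, with medians of 46.5 and 38.5 CPM in AGA CON and SGA CON and 42.8 and 51.2 CPM in AGA HF and SGA HF. Its interaction of 0.60 ± 0.14 (adjusted p = 0.167) was a DEG with any single litter left out.

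MEF2B, MED4 and NFXL1 had negative interactions. MEF2B, a MEF2 transcription factor on an unplaced sequence, had CON medians of 5.70 CPM in AGA and 9.14 in SGA, and HF medians of 7.35 and 5.98 CPM, and an interaction of -0.82 ± 0.23 (adjusted p = 0.319). MED4 (chr11:20010002-20019435), a subunit of the Mediator complex, had CON medians of 46.4 CPM in AGA and 51.6 in SGA, and HF medians of 52.9 and 46.4 CPM, and an interaction of -0.33 ± 0.10 (adjusted p = 0.397), the last value inside the threshold. NFXL1 (chr8:39788607-39845909), a zinc finger protein, had CON medians of 2.68 CPM in AGA and 3.69 in SGA, and HF medians of 4.97 and 3.51 CPM. NFXL1 was lower in SGA in all 6 HF litters, and its interaction was -0.995 ± 0.274 (adjusted p = 0.302). None of these 3 genes was a DEG for size on HF, and MEF2B was one on CON (0.54 ± 0.16, adjusted p = 0.383).

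The other named genes with a negative interaction were CLIC2, ERGIC2, F5 and C15H2orf80. CLIC2 (chrX:142872444-142885806), an intracellular chloride channel protein, lay at 2.32 to 6.57 CPM in CON litters and 2.81 to 5.12 CPM in HF litters, with non-overlapping litter differences and an interaction of -0.83 ± 0.24 (adjusted p = 0.319). ERGIC2 (chr5:47652951-47700246), a protein that cycles between endoplasmic reticulum and Golgi, had the smallest interaction of the DEGs at -0.32 ± 0.10 (adjusted p = 0.397). F5 (chr4:89027936-89109573), coagulation factor V, spread from 28.9 to 127 CPM over the libraries and had an interaction of -0.64 ± 0.18 (adjusted p = 0.319). F5 also stands in the choroid plexus marker list, whose summed level, F5 included, was 271 to 522 CPM over the libraries. The size response of F5 was 0.24 on CON and -0.40 on HF, and that of the sum was -0.09 and -0.31, with overlapping litter ranges. The other 6 tested choroid plexus markers had interactions from -0.87 for KL to 0.17 for SLC4A5 and 1 listed member was at 0 in every library. TTR, the carrier of thyroxine that the choroid plexus secretes, varied from 1.65 to 146 CPM. The part of choroid plexus tissue in the F5 value was not tested. C15H2orf80 (chr15:122800133-122823098), a gene without a known role, was higher in SGA in 6 of 6 CON litters and 2 of 6 HF litters (-0.58 ± 0.17, adjusted p = 0.358).

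Among the remaining positive DEGs, SMIM5 (chr12:5703409-5705209), a small membrane protein, fell in SGA on CON by 0.68 ± 0.13 (SE, log2; adjusted p = 0.0997) from a median of 15.1 to 9.93 CPM. Its value on HF was 0.05 ± 0.13 and its interaction 0.73 ± 0.18 (adjusted p = 0.238). FAM186B (chr5:15941864-15950612) and C1H6orf183 (chr1:84598982-84709537), both without a known role, were higher in SGA in all 6 HF litters. Their interactions were 0.65 ± 0.18 (adjusted p = 0.305) and 0.99 ± 0.25 (adjusted p = 0.256), and the litter differences of FAM186B did not overlap. The 5 named positive DEGs beyond the first 12 were LRRC71 (0.56), ABCB9 (0.36), MDC1 (0.36), LRRC51 (0.75) and STK32A (0.98). ABCB9, a peptide transporter of lysosomes, and MDC1, a mediator of the DNA damage checkpoint, differed from the pattern of the others: both rose in SGA on HF in 6 of 6 litters (0.38 ± 0.08, adjusted p = 0.104, and 0.36 ± 0.08, adjusted p = 0.132), with values of 0.02 and 0.0023 on CON.

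GH1 (chr12:15056362-15058095), the growth hormone gene of the pituitary, had the smallest p of all interactions (adjusted p = 0.0497) and rested on 1 library. SGA HF replicate 4 held 306 CPM. In the other 23 libraries GH1 was at 0 in 13 and at most 5.05 CPM, in AGA CON replicate 1. No fitted fold is given, since most libraries were at or under the floor and it depends on the prior count. Without the litter of SGA HF replicate 4 GH1 was no longer a DEG (adjusted p = 0.565), and DESeq2 did not call it with all litters (adjusted p = 0.9997). Prolactin, PRL, another pituitary hormone, was found in the same 2 libraries, at 7.37 CPM in SGA HF replicate 4 and 1.17 CPM in AGA CON replicate 1, and was at 0 in the other 22. The part of pituitary tissue in the GH1 value was not tested.

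**Figure D3:**
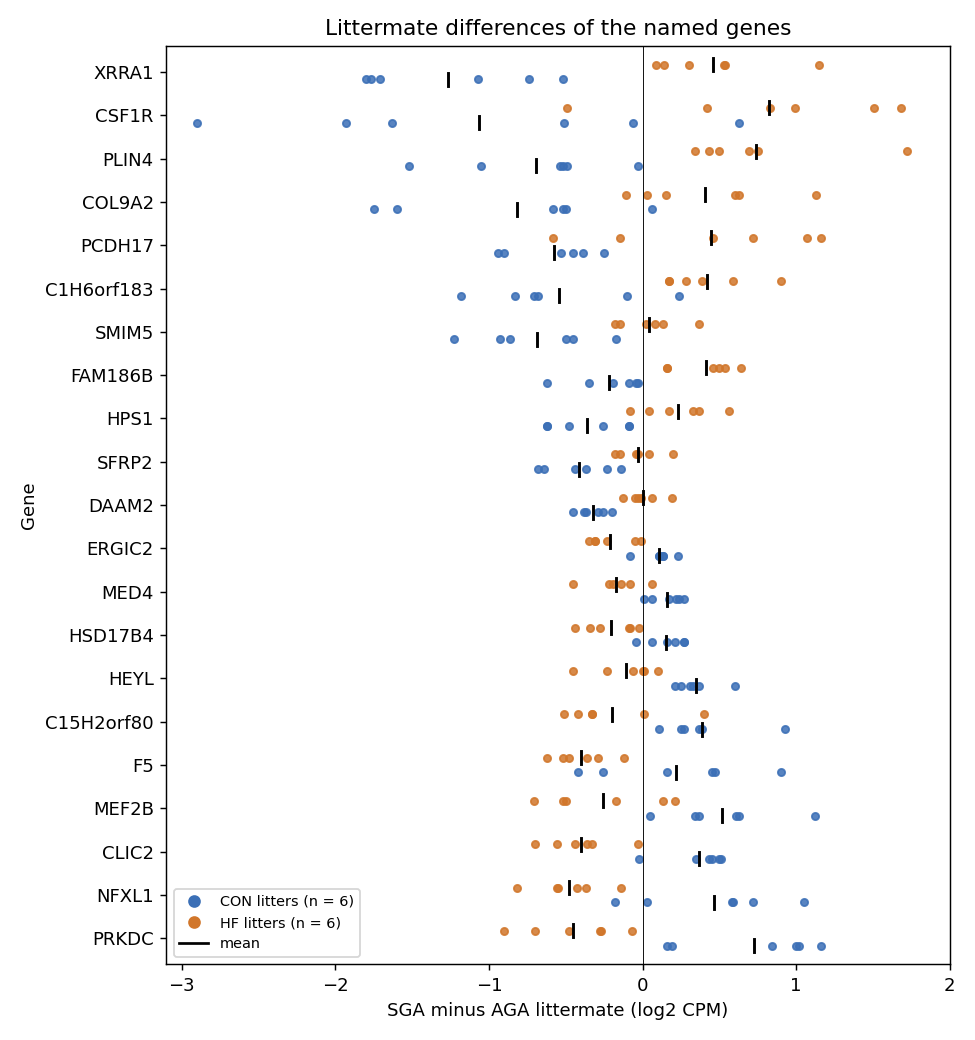
SGA minus AGA littermate difference in log2 CPM for 21 named genes, without GH1, in the 6 CON litters (blue) and the 6 HF litters (orange), with the mean as a black bar. The sets of points do not overlap for XRRA1, PLIN4, FAM186B, HPS1, DAAM2, HEYL, CLIC2 and PRKDC, and they overlap for the other 13 genes. The genes were chosen on these same litters.

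Which genes were DEGs depended on the terms of the model. Without the block, with sex and cohort in its place, 17 genes passed and all were among the 45. With sex and 5 surrogate variables in place of the block, which changes both at once, 40 genes passed and 14 were shared with the 45. Of the named genes, PLIN4 (1.56, adjusted p = 0.282), HPS1 (0.66, 0.301), C1H6orf183 (1.04, 0.332), HSD17B4 (-0.29, 0.365), MEF2B (-0.75, 0.373) and COL9A2 (1.16, 0.383) passed both with the block and with surrogate variables, as did XRRA1 (adjusted p = 0.307). With surrogate variables GH1 had an adjusted p of 0.444, PRKDC was at -1.15 (0.436), FAM186B at 0.69 (0.429), NFXL1 at -0.86 (0.486), PCDH17 at 1.08 (0.486), ERGIC2 at -0.24 (0.488), CLIC2 at -0.80 (0.516), MED4 at -0.27 (0.526) and HEYL at -0.44 (0.560). In the same model C15H2orf80 was at -0.42 (adjusted p = 0.614), SMIM5 at 0.55 (0.664), SFRP2 at 0.23 (0.699), DAAM2 at 0.23 (0.718), CSF1R at 1.1 (0.760) and F5 at -0.49 (0.874). All 45 DEGs had the same sign of interaction in all 3 models, which were fitted to the same libraries on which the DEGs were chosen. Within cohorts, each with 3 litters per diet, cohort 1 gave 0 DEGs by edgeR (552 genes at an unadjusted p under 0.05, 3.48%) and cohort 2 gave 13, of which 5 were among the 45.

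Gene lists were compared with all tested genes, of which 48.8% had a positive interaction and whose median was -0.0062. Myelin genes, the proteins and lipid enzymes of the oligodendrocyte sheath, had 30 tested members. Their median size response was -0.40 on CON and -0.21 on HF, and 27 of the 30 interactions were positive, with a median of 0.15. No member was a DEG for the interaction, and 2 had an unadjusted p under 0.05, where 2% of all genes had one in that direction. These were GJB1, a gap junction protein of the sheath (0.35 ± 0.13, adjusted p = 0.495), and FA2H, which hydroxylates the fatty acids of myelin lipids (0.32 ± 0.13, adjusted p = 0.554). The structural genes MBP (0.18) and MOBP (0.20) and the myelin transcription factor MYRF (0.31) were also positive. By litter the myelin median was -0.57 to -0.08 on CON, below 0 in 6 of 6, and -0.51 to 0.09 on HF, below 0 in 5 of 6, so that the diets overlapped. Members of a list vary together across litters, so the 27 of 30 are not 27 separate observations. The median was 0.03 in cohort 1 and 0.28 in cohort 2, 0.05 in male and 0.26 in female litters, and 0.06 with surrogate variables in place of the block. It was 0.08 without HF replicate 1 and 0.24 without HF replicate 2. No test was made of the list.

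Oligodendrocyte progenitor markers had 11 of 11 interactions positive, with a median of 0.12. GPR17, a receptor of committed progenitors, had 0.39 ± 0.16 (adjusted p = 0.531) and no marker was a DEG. The summed level of these markers had CON medians of 2352 CPM in AGA and 2132 in SGA, and HF medians of 2265 and 2238 CPM. Astrocyte markers had a median interaction of 0.19, with 9 of 12 positive. The largest among the astrocyte markers was AQP4, the water channel of astrocyte endfeet (0.49 ± 0.35, adjusted p = 0.767), and ependymal markers had 0.22, with 7 of 9 positive. Neuron markers had 1 of 10 positive and a median of -0.10, while markers of hippocampal granule and pyramidal neurons had 8 of 10 positive and a median of 0.11. The litters of the 2 diets overlapped in each summed level, and the part of cell composition in the single-gene values was not tested.

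The genes of cholesterol synthesis, which supplies the main lipid of myelin, had a median interaction of 0.09, with 17 of 23 positive. That median was 0.0075 with surrogate variables in place of the block, and 0.03 without HF replicate 1. LSS, which closes the sterol ring, had 0.23 ± 0.10 (adjusted p = 0.596) and SREBF2, the transcription factor of the pathway, 0.15 ± 0.09 (adjusted p = 0.733). LSS was lower in SGA in 6 of 6 CON litters and in 2 of 6 HF litters. Fatty acid synthesis, desaturation and elongation had a median of 0.09, with 14 of 23 positive, and 0.06 with surrogate variables and 0.02 in cohort 2. FASN, the fatty acid synthase, gave 0.43 ± 0.20 (adjusted p = 0.597), with CON medians of 149 CPM in AGA and 137 in SGA, and HF medians of 126 and 156 CPM, and SREBF1, its main regulator, 0.24 ± 0.14 (adjusted p = 0.700). Lipid droplet and fatty acid oxidation genes stayed near the median of all genes, at 0.01 with 23 of 41 positive. PLIN4 was their DEG, and the fatty acid transporter SLC27A1 (0.31 ± 0.13, adjusted p = 0.562) and the hormone-sensitive lipase LIPE (0.33) followed. No other member of the list was a DEG.

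Heat shock chaperones, which fold proteins in the cytosol, mitochondria and endoplasmic reticulum, had the lowest median interaction of the pathway lists, -0.13, with 32 of 36 negative. The list had a median size response of 0.07 on CON and -0.07 on HF. None was a DEG, and 5 had an unadjusted p under 0.05, where 1.73% of all genes had one in the negative direction. These were DNAJC3 (-0.48 ± 0.19, adjusted p = 0.530) and HSP90B1 (-0.23) of the endoplasmic reticulum, DNAJA1 (-0.27 ± 0.11, adjusted p = 0.537) of the cytosol, and HSPD1 (-0.22) and HSPA9 (-0.21) of mitochondria. The stress-induced genes HSPA1A (-0.01), DNAJB1 (-0.08) and BAG3 (-0.07) were close to 0. By litter the median was -0.06 to 0.20 on CON and -0.22 to 0.02 on HF, and it stayed between -0.16 and -0.10 with any litter left out, with -0.22 in cohort 1 and -0.06 in cohort 2. DNAJC3 was a DEG with surrogate variables in place of the block (-0.60, adjusted p = 0.398).

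Cytosolic ribosomal protein genes had 66 of 74 negative interactions with a median of -0.09, and respiratory chain genes 47 of 55 with a median of -0.09. No member of either list was a DEG. RPL23 (-0.24 ± 0.13) and RPS18 (-0.20 ± 0.11) had the smallest p of the ribosomal list, and COX7C (-0.26 ± 0.11, adjusted p = 0.553) and NDUFS6 (-0.28 ± 0.13, adjusted p = 0.600) of the respiratory list. Both list medians changed sign with surrogate variables in place of the block, to 0.01 and 0.02, and in the male litters alone, to 0.03 and 0.10. With sex and cohort in place of the block they were -0.10 and -0.10, and without HF replicate 2 -0.03 and -0.05. Counts of near-identical ribosomal copies are less certain, since reads that align to several places were not counted.

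**Figure D4:**
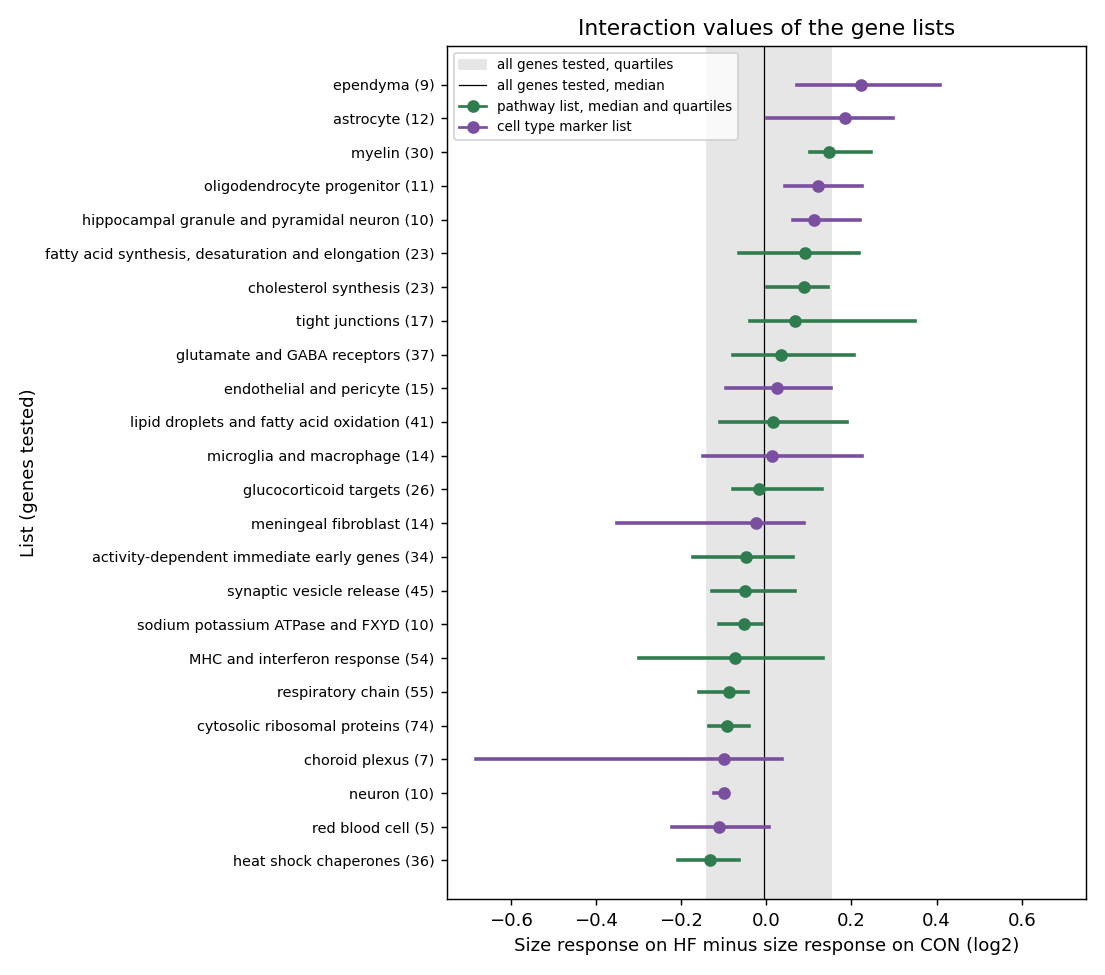
Median (point) and quartiles (line) of the interaction over the tested members of each list, with the number tested in brackets, pathway lists in green, cell type marker lists in purple, and quartiles and median of all genes tested in grey and black. Myelin, progenitor, astrocyte and ependymal lists lie to the right and heat shock chaperones to the left, within or near the quartiles of all genes. The pituitary list, with 4 genes including GH1, is not drawn.

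**Figure D5:**
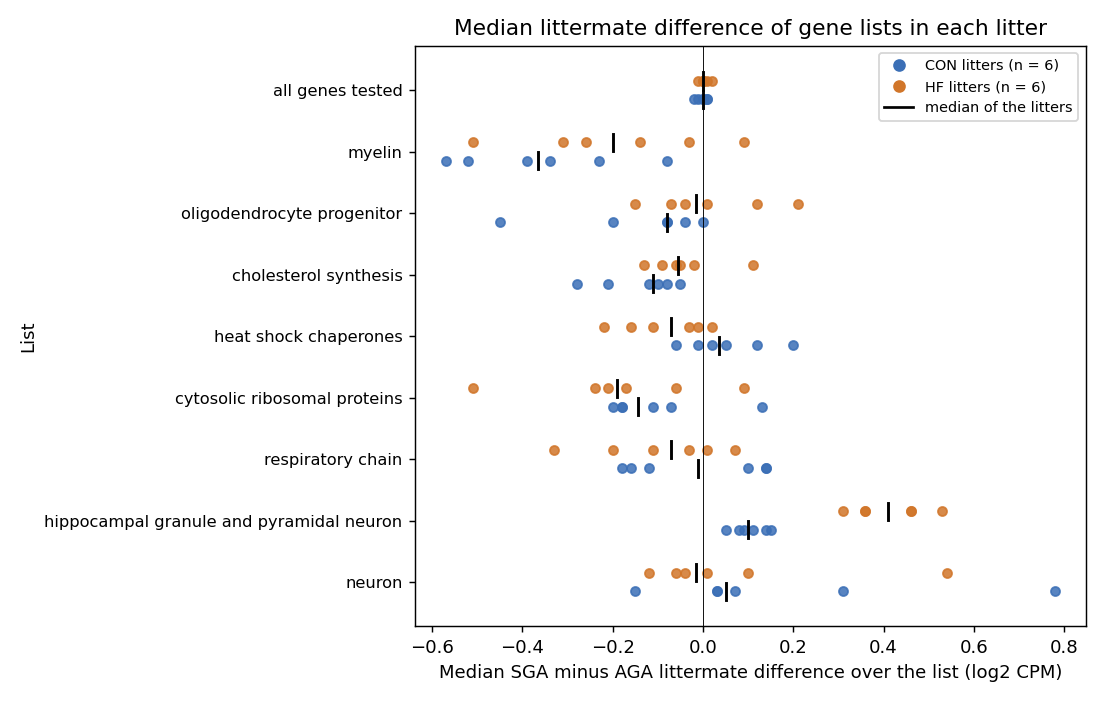
Median SGA minus AGA difference over the members of 9 gene sets in each CON litter (blue) and HF litter (orange), in log2 CPM, with the median of the 6 litters as a black bar. All genes tested lie at 0 in every litter. Litters of the 2 diets overlap for each set except the hippocampal granule and pyramidal neuron markers.

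Markers of hippocampal granule and pyramidal neurons separated the diets by their median, but not by their sum. The median over the 10 tested markers was 0.05 to 0.15 in the CON litters and 0.31 to 0.53 in the HF litters, the only one of 25 lists without overlap. This list was picked out with its values in view. The summed level had a size response of 0.23 on CON and 0.18 on HF, in the opposite order, and overlapped. CALB1, a calcium-binding protein of mature granule cells, had the largest interaction (1.56 ± 1.08, adjusted p = 0.761), PROX1, the granule cell transcription factor, 0.11 ± 0.16, and none of the 10 had an unadjusted p under 0.05.

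The other lists stayed close to the median of all genes. Immediate early genes, induced by neuronal activity, had a median of -0.05 with 14 of 34 positive, and glucocorticoid targets -0.02 with 11 of 26. JUN, lower in SGA in 6 of 6 CON litters and 3 of 6 HF litters, gave 0.34 ± 0.13 (adjusted p = 0.503), and IER3 -0.71 ± 0.39 (adjusted p = 0.672). The glucocorticoid list shares PLIN4 with the lipid list, and its next member, MERTK, gave -0.35 ± 0.19 (adjusted p = 0.676). Synaptic vesicle genes had -0.05 with 15 of 45 positive, with BSN at 0.40 ± 0.21 and RIMS3 at 1.40 ± 0.78, and glutamate and GABA receptors 0.03 with 23 of 37. The receptor subunits GRIA4 (-0.48 ± 0.21) and GABRG1 (-1.20 ± 0.55) were lower in SGA in 6 and 5 of 6 HF litters. The sodium pump list had 2 of 10 positive (median -0.05), with FXYD2 at -0.49 ± 0.68. MHC and interferon genes had 22 of 54 positive (median -0.07), and their class I genes SLA-8 (-0.53 ± 0.19, adjusted p = 0.479) and SLA-1 (-0.72 ± 0.33, adjusted p = 0.596) belong to a family whose members share reads. Tight junction genes had 11 of 17 positive (median 0.07), with CGN at 0.41 ± 0.21. CLDN6, a claudin, was at 1.32 ± 0.45 (adjusted p = 0.459) and passed with surrogate variables in place of the block (1.59, adjusted p = 0.282).

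Markers of the other tissues that a dissection could include overlapped between the diets. Endothelial and pericyte markers had a median interaction of 0.02 with 9 of 15 positive, meningeal fibroblast markers -0.02 with 6 of 14, red blood cell genes -0.11 with 2 of 5, choroid plexus markers -0.10 with 3 of 7, and pituitary genes 0.22 with 2 of 4. In every one of the 11 marker lists the size response of the summed level overlapped between CON and HF litters. The summed pituitary list, of which 3 of 11 members were at 0 in all libraries, had group medians of 556 to 618 CPM. Its highest library was SGA HF replicate 4 at 899 CPM, of which GH1 gave 306 CPM, and POMC was found in every library.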

How the data were processed

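Hippocampal RNA of 24 piglets was sequenced as strand-specific single-end libraries of poly(A) RNA. The authors report a reduced average RNA quality number for the samples and attribute it to pre-spliced RNA. RNA quality was not compared between littermates or diets here. The authors trimmed reads (Trimmomatic 0.33), aligned them to the Sscrofa10.2 genome (STAR 2.5.2a) and deposited whole-number counts per gene (featureCounts of Subread 1.5.0, exons of each gene, strand used), neither filtered nor normalized. Reads that align to several places were left out by the default of that tool. Each of the 24 files lists 38882 genes, and 1 further entry without identifier, with 0.613 to 1.62% of reads, was left out. Symbols were matched on gene identifier in a Sscrofa11.1 table (23036 matched, 15993 with a symbol that is not a LOC name), and coordinates are those of the deposited files. Totals per library were 6017336 to 9284355 counts, and the floors cover counting error only. The SEs come from the fit with its estimated dispersion and so include variation between animals, and the SDs are taken over litters.

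Groups, litters, sexes and cohorts came from the labels. A litter is the AGA and SGA piglets that carry 1 pair label, and whether different pairs shared a sow is not given in the sources used here. Genes reaching 1 CPM in 3 or more libraries were kept (16326), scaled by TMM and fitted with edgeR 4.0.16 (R 4.3.3; glmQLFit and glmQLFTest) on 12 litters as a block, size on CON and size on HF. Littermates deviated together from their group means (mean r = 0.154 over 12 pairs, 0.0144 to 0.329, against 0.0314 over 24 pairs from other litters), and the labels give the pairing. The FDR was computed over 4 contrasts: size on CON, size on HF, their mean and their difference. The threshold of 0.4 is the one used in the study. Log2 CPM had a prior count of 2 and the common biological coefficient of variation was 0.151. Alternatives used limma 3.58.1 (voom), DESeq2 1.42.0 and sva 3.50.0. The fit was tested on simulated data.

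Genes named are the DEGs with a symbol, up to 12 of smallest p in each direction, DEGs within the lists, and the 2 members of smallest p in each of 14 pathway lists, except that 1 such list member is not reported here. The comparison, the genes and the 25 lists were chosen with earlier results of these data known, and further DEGs and list members were named after their values were seen. No p is given for a list.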

Additional observations from a re-analysis of the deposited data

Results flagged for a closer look

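Single piglets stood apart from their 5 group mates, or single litters from the 5 others on the same diet, in 11 sets of values of the named genes. This was 7 of 88 groups of levels and 4 of 44 sets of litter differences, and chance gives about 1 in 20. GH1 was flagged in 3 groups, at 5.05 CPM in AGA CON replicate 1, 0.758 CPM in SGA CON replicate 4 and 306 CPM in SGA HF replicate 4, and in the litter difference of HF replicate 4, which was 10.16 in log2 CPM, a value that depends on the prior count. CSF1R stood apart at 34.5 CPM in AGA CON replicate 2. PRKDC was flagged at 20.3 CPM in AGA CON replicate 6, the highest of its group, and at 9.46 CPM in SGA CON replicate 1, the lowest of its group. C15H2orf80 was low in SGA HF replicate 4, at 10.9 CPM, and had a high litter difference of 0.93 in CON replicate 2. The litter difference of PLIN4 in HF replicate 6 was 1.72, the highest of the 6 HF litters, and that of CLIC2 in CON replicate 6 was -0.02, the lowest of the 6 CON litters. The size response itself differed between the diets by the test of that difference for 45 genes.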

How the results depend on the processing

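The number of DEGs depended on the processing. All 45 DEGs kept the sign of their interaction in every setting in which they were tested. These settings reuse the litters on which the 45 were chosen, so an unchanged sign was largely fixed in advance. Leaving out each litter in turn gave 12 to 168 DEGs, 8 to 105 positive and 4 to 63 negative. There were 12 without the litter of CON replicate 2, 18 without HF replicate 4, 23 without CON replicate 6, 24 without HF replicate 1 or CON replicate 5, 25 without HF replicate 5, 90 without CON replicate 4, 106 without CON replicate 1 and 168 without HF replicate 3. Of the 22 named genes, HPS1 and PRKDC were DEGs in all 12 of these fits and MED4 in 2. Without the replicate block, the study's terms (sex and 5 surrogate variables) gave 40 DEGs, 23 positive and 17 negative, by edgeR with the FDR over 4 contrasts. The study itself used limma voom and an FDR over 7 contrasts, so the 40 are not its count. Sex and cohort in place of the block gave 17 (11 and 6), all among the 45. The block with size-by-cohort and size-by-sex terms gave 24 (16 and 8). DESeq2 gave 37, 27 positive and 10 negative, and limma voom 58. Of the 22 named genes, DESeq2 did not call GH1, PLIN4, FAM186B, NFXL1, HEYL, CLIC2, MEF2B, ERGIC2 and MED4. Without a filter on low counts 361 of 27413 genes passed (241 and 120), 41 of them shared. An FDR over the interaction alone gave 4 (2 and 2), and an FDR p under 0.05 gave 1 (1 and 0). Cohort 1 alone gave 0 (0 and 0) and cohort 2 alone 13 (3 and 10). Male litters alone gave 1 (1 and 0) and female litters alone 297 (200 and 97), with 3.51% and 9.88% of genes at an unadjusted p under 0.05, and the difference between the sexes was not tested. The cause of these changes was not tested.

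Interactions that changed sign belonged to genes that were no DEGs. These were, in male litters alone, FASN at -0.037, SREBF1 at -0.014, NDUFS6 at 0.0080 and FXYD2 at 0.62. FXYD2 was at 0.061 in cohort 1 alone and from -0.75 to 0.028 with each litter left out, above 0 without CON replicate 4. SLA-1 was at 0.37 in cohort 2 alone. GH1, XRRA1, RIMS3 and FXYD2 passed the filter in too few libraries to be tested in some of the cohort and sex subsets. Relative counting error is largest for low genes. Of the 45 DEGs, 12 had a mean under 5 CPM, a smaller share than the 32.9% of genes tested.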

Other observations

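Several DEGs without a symbol lay close to another DEG on the same chromosome, in some pairs with interactions of opposite sign and in others of the same sign. Of the 40 DEGs placed on a chromosome, 9 had another within 500000 bases. The share in sets of genes that were not DEGs was not computed, so the 9 are a description. This was looked for after the list was seen. The gene 100627087 (chr4:110390730-110428088) had a positive interaction of 0.88 ± 0.14 (SE, log2; adjusted p = 0.0593), with CON medians of 130 CPM in AGA and 71.7 in SGA, and HF medians of 111 and 120 CPM. It was lower in SGA in 6 of 6 CON litters and higher in 4 of 6 HF litters. LOC100517759 (chr4:110321767-110336109), 54621 bases away on the same strand, ran opposite at -0.94 ± 0.24 (adjusted p = 0.263), with CON medians of 25.9 CPM in AGA and 45.9 in SGA, and HF medians of 27.5 and 25.6 CPM.

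CSF1R had DEGs of opposite sign in its neighbourhood. The gene 102166682 (chr2:158036935-158053005), 154022 bases away, had an interaction of -2.02 ± 0.38 (adjusted p = 0.0879), and the gene 100626192 (chr2:158174761-158188631), 291848 bases away, -2.998 ± 0.665 (adjusted p = 0.158). The gene 100626192 spread from 0.452 to 33.1 CPM over the libraries, and CSF1R from 0.462 to 34.5 CPM. The span of 102166682 overlaps another listed gene on the same strand, so its counts are less certain. STK32A (chr2:155283793-155320647) and the gene 100622258, 2585 bases away on the other strand, were both positive, at 0.98 and 1.08. On chromosome X, LOC100623862 (chrX:141832370-141838313) gave 2.70 ± 0.62 (adjusted p = 0.178), with values from 3.56 to 58.4 CPM. The gene 100737297, 295704 bases away on the other strand, was at -1.85. The mapping of reads around these genes was not tested.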
